A study of Homo sapiens with 4 samples.

Results

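The sites described here are FOXK1 peaks that stood high in both peak lists of the series and lay between genes. They were chosen by their height, a whole number per peak in the deposited lists that was read as the pileup of reads, which had to reach 20 in the control list and in an overlapping TGF-β1 peak, and by position. The midpoint of the control peak had to lie outside every RefSeq gene of any kind and more than 5 kb from every end of a protein-coding gene, on chromosomes 1 to 22 or X, and outside 1 Mb bins without a protein-coding gene. Of 7607 control peaks of height 20 or more, 4189 (55.1%) were overlapped by a TGF-β1 peak of that height, and 746 of these 4189 (17.8%) met the position rule. The other shared peaks included 1725 deep inside genes and 1078 within 1 kb of a protein-coding gene end. The whole TGF-β1 list held 439123 peaks on these chromosomes and the whole control list 381673.

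The 2 FOXK1 libraries came from HK-2 cells, an immortalised line of human proximal tubular epithelium, given 10 ng/ml TGF-β1 for 24 h or left as untreated controls. Each was set against an input library of its own condition, so there were 4 libraries in all and 1 FOXK1 library per condition. No difference between the conditions could be tested, and sequencing depth is unknown, so heights of the 2 lists are printed side by side and are not a measure of change. The series holds no expression values against which the labelled cell type could be checked.

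FOXK1 is a forkhead transcription factor that binds DNA through a winged-helix domain which prefers the letters GTAAACA. It represses autophagy and atrophy genes in fed cells and has been tied to glycolysis. Sites between genes are often enhancers or the starts of non-coding genes, and an enhancer need not act on the gene that lies nearest. TGF-β1, the cytokine given to the treated cells, drives fibrotic responses of tubular cells and signals through SMAD proteins.

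For 19 members the RefSeq promoter table (GRCh38.p14, the coordinates of hg38) held sequence, because the window around the start of a non-coding gene overlapped the control peak. The table gives 300 bases for each start, 250 before it and 50 after it, and 20 different windows overlapped a member, 18 of them along their whole length. All 20 belonged to long non-coding RNA genes (lncRNA). The 5 windows that held GTAAACA on either strand are shown, because this is the word forkhead factors prefer, together with the window with a pair of AP-1 words and that of MIR17HG, the host gene of the miR-17-92 cluster. Bases run 5′ to 3′ on the strand of the gene. Capitals mark GTAAACA or TGTTTNC, the looser forkhead spelling that contains it, and the AP-1 word TGANTCA, each searched on both strands.
LOC124907883 (chr2:127226569-127226868, plus strand): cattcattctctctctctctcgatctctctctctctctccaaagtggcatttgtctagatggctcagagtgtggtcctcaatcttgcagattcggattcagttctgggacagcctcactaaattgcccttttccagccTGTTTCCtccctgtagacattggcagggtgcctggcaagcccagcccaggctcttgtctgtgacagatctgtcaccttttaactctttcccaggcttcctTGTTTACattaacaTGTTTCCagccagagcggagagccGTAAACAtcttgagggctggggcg
LINC02288 (chr14:77040799-77041098, plus strand): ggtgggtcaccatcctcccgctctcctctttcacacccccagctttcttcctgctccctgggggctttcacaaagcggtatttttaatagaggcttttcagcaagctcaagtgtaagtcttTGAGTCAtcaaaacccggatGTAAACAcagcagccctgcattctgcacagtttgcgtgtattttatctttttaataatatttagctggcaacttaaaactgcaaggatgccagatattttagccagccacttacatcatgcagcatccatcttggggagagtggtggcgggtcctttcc
LINC00303 (chr1:204041216-204041515, minus strand): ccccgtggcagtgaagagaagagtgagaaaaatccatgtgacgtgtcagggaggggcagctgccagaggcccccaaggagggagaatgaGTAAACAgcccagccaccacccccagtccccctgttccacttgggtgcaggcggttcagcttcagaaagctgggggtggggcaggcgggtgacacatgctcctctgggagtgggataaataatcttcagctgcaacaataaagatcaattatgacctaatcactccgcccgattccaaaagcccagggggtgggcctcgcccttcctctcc
LOC105370581 (chr14:77965912-77966211, plus strand): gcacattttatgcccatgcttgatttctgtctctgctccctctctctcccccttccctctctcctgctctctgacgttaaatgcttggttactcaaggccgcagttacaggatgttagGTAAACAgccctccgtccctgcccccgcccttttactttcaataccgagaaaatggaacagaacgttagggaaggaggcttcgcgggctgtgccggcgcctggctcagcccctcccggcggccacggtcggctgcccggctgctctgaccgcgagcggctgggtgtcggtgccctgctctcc
LOC105373465 (chr2:20424896-20425195, minus strand): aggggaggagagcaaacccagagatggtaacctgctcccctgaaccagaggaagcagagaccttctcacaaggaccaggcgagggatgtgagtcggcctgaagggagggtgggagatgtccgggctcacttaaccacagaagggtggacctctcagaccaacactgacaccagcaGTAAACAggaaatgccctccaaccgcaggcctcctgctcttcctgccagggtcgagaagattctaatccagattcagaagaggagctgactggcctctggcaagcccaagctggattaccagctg
PRECSIT (chr13:110870259-110870558, minus strand): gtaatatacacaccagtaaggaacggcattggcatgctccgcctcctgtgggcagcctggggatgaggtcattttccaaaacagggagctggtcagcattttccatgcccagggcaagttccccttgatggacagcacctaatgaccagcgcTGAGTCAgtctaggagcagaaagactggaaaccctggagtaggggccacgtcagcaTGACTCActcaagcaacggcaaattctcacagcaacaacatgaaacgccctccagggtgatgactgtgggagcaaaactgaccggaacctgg
MIR17HG (chr13:91347437-91347736, plus strand): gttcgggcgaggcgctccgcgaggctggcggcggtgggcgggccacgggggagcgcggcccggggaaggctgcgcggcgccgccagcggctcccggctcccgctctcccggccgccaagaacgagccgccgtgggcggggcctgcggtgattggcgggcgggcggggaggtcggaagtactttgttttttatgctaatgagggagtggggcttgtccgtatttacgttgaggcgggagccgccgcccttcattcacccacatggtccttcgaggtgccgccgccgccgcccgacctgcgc

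The GTAAACA word was found in 5 of the 20 windows, 25% (exact binomial 95% interval 8.66 to 49.1), against 4.40% of 12806 lncRNA windows, 3.42% of all 34789 windows and 10.6% of 1298 windows that a shared peak of height 20 or more at a protein-coding gene end overlapped. The lncRNA with the most forkhead words, LOC124907883, was also among the highest members, with heights of 94 in the TGF-β1 list and 84 in the control list. Its window held both strands' spellings of GTAAACA close to each other near its 3′ end. LINC02288 had heights of 53 in the TGF-β1 list and 53 in the control list and held 1 GTAAACA and 1 AP-1 word. LINC00303 had 22 in the TGF-β1 list and 40 in the control list, LOC105370581 had 22 and 33 in the same order, and LOC105373465, which lay 21846 bp from RHOB, had 23 and 21. Heights of the windows with the word thus covered the range from low to high. TGTTTNC was in 6 of the 20 windows, 30% (11.9 to 54.3), against 22.6% of lncRNA windows, and these 6 include the 5 with GTAAACA.

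The AP-1 word TGANTCA, bound by JUN and FOS dimers, was in 8 of the 20 windows, 40% (19.1 to 63.9). It was in 10.3% of lncRNA windows, in 7.69% of all windows and in 4.31% of windows at shared gene-end peaks. PRECSIT, with heights of 30 in the TGF-β1 list and 30 in the control list, held 2 such words. The GC box GGGCGG, common in CpG-rich promoters, was less frequent than at gene ends. It was in 6 of the 20 windows (30%), in 25.6% of lncRNA windows and in 72.8% of windows at shared gene-end peaks. The median GC content was 52.8% in the members' windows, 50% in lncRNA windows and 64.0% at shared gene-end peaks, and the part of base composition in these shares was not tested. The ETS word CCGGAAGT and the CRE word TGACGTCA were in 0 of the 20 windows, which allows a share of up to 15% (3 counts of the total), against 12.4% and 4.08% of windows at shared gene-end peaks. The word for RUNX factors, TGTGGT, was in 6 windows (30%, against 16.2% of lncRNA windows), the TEAD word GGAATG in 4 (20%, against 17.2%), the TATA word TATAAA in 3 (15%, against 15.1%) and the C/EBP word TTGCNNAA in 2 (10%, against 13.5%). The CTCF core CCACNAGG, the E-box CACGTG and the HNF1 word GTTAATNAT were in 1 window each and the NF-κB word GGGNNTTCC in 0. These 14 words describe 20 windows at lncRNA starts, which are not a sample of the 746 members. For the other members no sequence was read.

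The members were mostly moderate in height. The median was 28 in the TGF-β1 list and 31 in the control list, with quartiles of 24 and 38 in the TGF-β1 list and 24 and 41 in the control list. Of the 746, 402 had a TGF-β1 height of 20 to 29 and 343 a control height in that range, and 59 (7.91%) reached 50 in both lists. The same share was 16.7% (14.5 to 19.1) of shared peaks at protein-coding gene ends and 8.46% (7.19 to 9.88) of those deep inside genes, against 6.08 to 10.1 as the interval of the members. Heights of the 2 lists were correlated across the 746 members with Spearman's rho 0.59, against 0.77 at gene ends and 0.58 deep inside genes. The points share 1 library on each axis and were all cut at a height of 20, so the values are given as a description. Since height chose the members, nothing is tested on it. Just inside the height rule, the lower of the 2 heights was 20 at 84 members, and just outside, it was 19 at 105 and 18 at 133 sites that met the position rule.

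**Figure D1:**
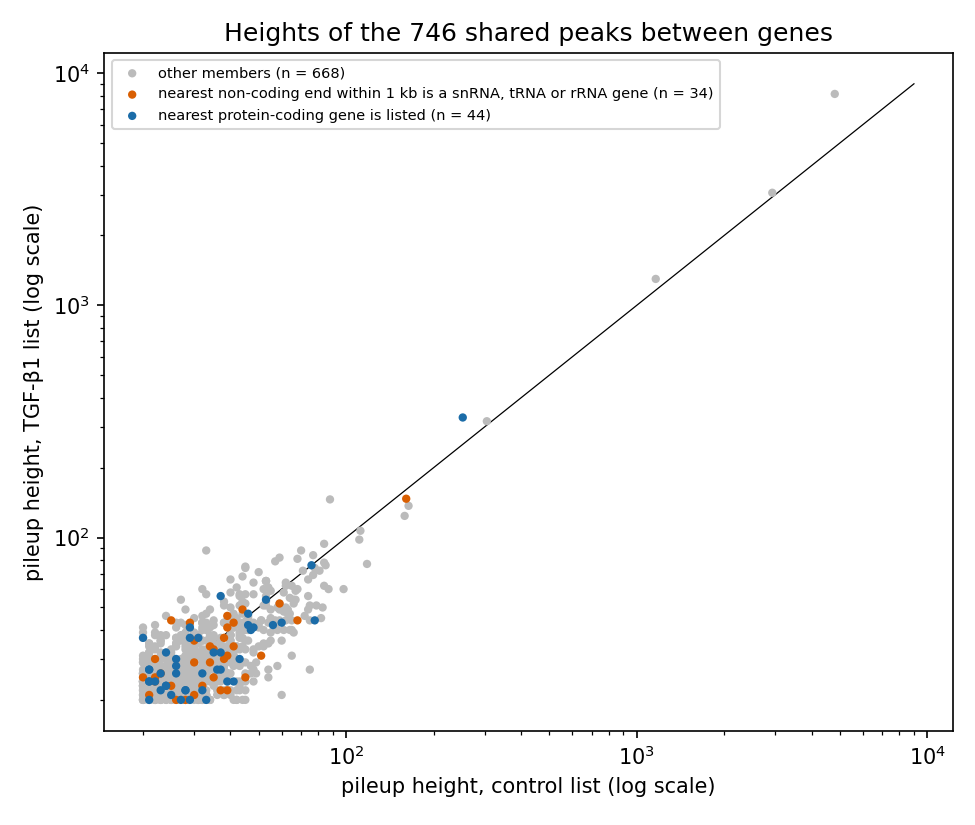
Pileup height of each of the 746 members in the TGF-β1 list (y, log scale) against the control list (x, log scale), 1 point per member, with the line of equal height. Orange points have a snRNA, tRNA or rRNA gene as the nearest non-coding end within 1 kb, blue points have a listed gene as the nearest protein-coding gene, and grey points are the rest. Most points lie between 20 and 60 in both lists. The highest, beside PROS1 on chromosome 3, has 8140 in the TGF-β1 list and 4805 in the control list.

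The 4 members highest in the control list stood apart. The peak at 93470451 to 93470770 on chromosome 3, 402441 bp from PROS1, had a height of 8140 in the TGF-β1 list and 4805 in the control list. Between 143214332 and 143254951 on chromosome 1, 3 members had heights of 3055, 317 and 1300 in the TGF-β1 list and 2929, 305 and 1163 in the control list. Positions of centromeres and repeats were not used here, and how well reads can be placed in these blocks was not tested. These 4 control peaks were 320 to 456 bp wide, against a median of 890.5 bp for all members. Between 143202542 and 143262365 on chromosome 1, in and just beside this stretch, the TGF-β1 list held 6 further peaks, 197 to 3852 high, that no control peak overlapped. Without the 4, the highest member reached 329 in the TGF-β1 list and 252 in the control list, the medians were 28 and 30.5, and rho was 0.59.

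The next highest members lay on several chromosomes. The peak 20342 bp beyond the 3′ end of CCNE1, cyclin E1, which drives entry into S phase, had 329 in the TGF-β1 list and 252 in the control list. Its control peak covered 29844125 to 29845184 on chromosome 19. A peak 11878 bp from CCN5, a matricellular protein of the CCN family, had 137 in the TGF-β1 list and 164 in the control list, and a second member beside it had 54 and 66. A member beside CCDC200 with 147 in the TGF-β1 list and 161 in the control list belonged to a large group at snRNA genes. DHRS3, a retinaldehyde reductase, had a member 17851 bp beyond its 3′ end with 124 in the TGF-β1 list and 159 in the control list. CBX7, a Polycomb subunit, had a member on its 5′ side with 77 and 118, and ITPKB, an inositol trisphosphate kinase, one with 146 and 88, again TGF-β1 list first. These last 2 show that the order of the 2 heights was not the same at all members. ENTPD6, a nucleoside diphosphatase, had 107 in the TGF-β1 list and 112 in the control list, and PAQR8, a membrane progestin receptor, had 98 and 111. Among the 15 highest of 1 list only were members beside METTL13 (60 in the TGF-β1 list and 98 in the control list), LRMDA (60 and 87) and EVA1A (76 and 85), and beside CYP27C1 (94 and 84), the glucose transporter gene SLC2A10 (88 and 33), TTC8 (88 and 70) and the chromatin remodeller CHD2 (84 and 77).

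Genes of TGF-β signalling and its response were the nearest gene of a member at a higher share than all protein-coding genes. Of all 19974 protein-coding genes, 584 (2.92%) were the nearest to at least 1 member, and of the 30 listed TGF-β genes 9 were (30%). Over the 276 genes of all lists, 30 were (10.9%), so listed genes as a whole stood above the share of all genes. The listed TGF-β genes were also often the nearest gene of a weak control peak between genes, 23 of 30 against 8681 of all 19974. Together they were the nearest gene of 17 members, 2.28% of the 746 (1.33 to 3.62), against 0.343% (0.300 to 0.390) of 65933 control peaks of height 5 or less that met the same position rule. The list was written with earlier results of these data known, so the share is a description. The 17 members had heights of 20 to 47 in the TGF-β1 list and 21 to 78 in the control list, and 12 of them lay more than 50 kb from the gene. The interval counts each member as independent, though TGFB2 alone was the nearest gene of 5. TGFB2 lies on chromosome 1, which held 15.95% of members and 4.83% of weak peaks. BMP2 lies on chromosome 20, which held 6.97% and 0.887%. The part of this uneven spread in the shares was not tested.

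TGFB2, a ligand of the pathway, had 5 members beyond its 3′ end, 31957 to 214098 bp away, with heights of 21 to 32 in the TGF-β1 list and 25 to 41 in the control list. BMP2, a ligand of the related BMP branch, had 2, the nearer 101360 bp away with 44 and 78 and the farther 233732 bp away with 47 and 46, TGF-β1 list first. INHBA, which encodes the activin A subunit, had 1 with 32 in the TGF-β1 list and 37 in the control list. LTBP2, a matrix protein of the latent TGF-β binding family, had 2 members 6157 and 8396 bp beyond its 5′ end. The inhibitory SMAD gene SMAD6 had 1 member, 28 high in the TGF-β1 list and 26 in the control list, which lay between it and SMAD3, and the ubiquitin ligase gene SMURF2 had 1 with 20 and 29. The transcription factor genes RUNX1 and RUNX2 had 2 each, 99904 to 216918 bp from the gene.

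**Figure D2:**
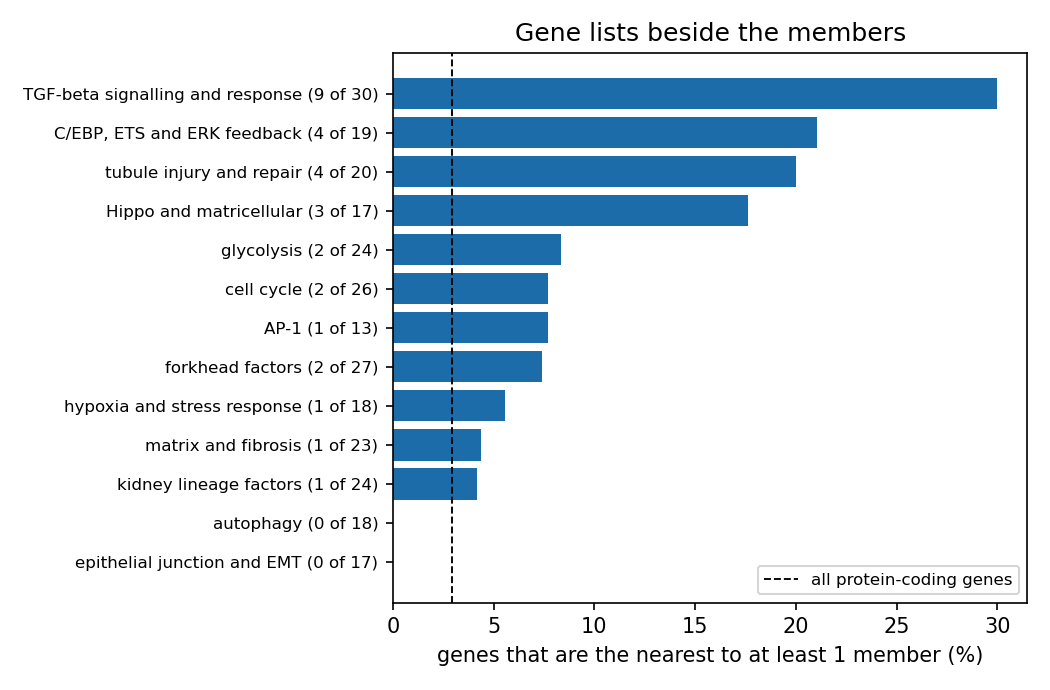
Share of the genes of each list (bars, %) that are the nearest protein-coding gene of at least 1 member, with the counts in the labels and the share over all protein-coding genes (2.92%) as a dashed line. TGF-β genes stand highest with 9 of 30, and autophagy (0 of 18) and epithelial junction and EMT genes (0 of 17) at 0.

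Lists of growth factor feedback, injury and matricellular genes came next. Of 19 genes of C/EBP, ETS and ERK feedback, 4 were the nearest to a member. DUSP5, a phosphatase that dampens ERK, had 3 members with heights of 22 to 56 in the TGF-β1 list and 32 to 47 in the control list, and SPRY2, CEBPB and IER3 had 1 each with 20 to 26 and 21 to 24. Of 20 genes of tubule injury and repair, 4 were. The chemokine gene CXCL8 had 2 members on its 5′ side with 30 and 41 in the TGF-β1 list and 26 and 29 in the control list, the zinc finger factor gene KLF6 had 2, and IL6 and PLAU, urokinase, had 1 each. Of 17 Hippo and matricellular genes, 3 were. AMOTL2, an angiomotin that binds YAP, had 1 member with 76 in the TGF-β1 list and 76 in the control list, while CCN1 and the growth factor gene AREG had 2 each. Members nearest to these genes made up 0.804%, 0.804% and 0.670% of the 746, in this order of lists, against 0.413%, 0.258% and 0.076% of the weak peaks. The intervals of the members' shares were 0.296 to 1.74 for each of the first pair of lists and 0.218 to 1.56 for the third. Only the first list's weak peak share lay inside its interval. The intervals count each member as independent, though DUSP5, CXCL8, KLF6, CCN1 and AREG were each the nearest gene of several. These lists too were written with earlier results of these data known, so the shares are a description.

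The remaining lists gave few sites, with 0% to 8.33% of their genes nearest to a member, against 2.92% of all protein-coding genes. Glycolysis had 2 of 24, with a member 11476 bp from ENO1, enolase 1, at 20 in the TGF-β1 list and 33 in the control list and 1 beside LDHA, a lactate dehydrogenase subunit, at 22 and 23. The cell cycle list had 2 of 26, CCNE1 and the kinase gene WEE1, whose member had 41 in the TGF-β1 list and 48 in the control list. Forkhead factors had 2 of 27. FOXK1 itself had a member 40193 bp beyond its 5′ end, at 4641205 to 4643000 on chromosome 7, with 54 in the TGF-β1 list and 53 in the control list, and FOXD1 had 1 with 24 and 21. AP-1 had 1 of 13, the gene of the AP-1 subunit FOS with 43 in the TGF-β1 list and 60 in the control list. Hypoxia and stress response had 1 of 18 (NDRG1 with 27 and 37), matrix and fibrosis 1 of 23 (COL6A3 with 24 and 21) and kidney lineage factors 1 of 24. Autophagy had 0 of 18 and epithelial junction and EMT genes 0 of 17. Of the 65933 weak peaks, 13 (0.020%) lay nearest to an autophagy gene and 186 (0.282%) to an epithelial or EMT gene. The members' interval for 0 reached 0.493%. Members' shares were below those of weak peaks for kidney lineage (0.134% against 0.684%) and forkhead genes (0.268% against 0.328%). They were above for glycolysis (0.268% against 0.050%), cell cycle (0.268% against 0.174%), AP-1 (0.134% against 0.041%), hypoxia (0.134% against 0.038%) and matrix genes (0.134% against 0.127%).

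Genes nearest to a member also had shared peaks at their own ends more often than other genes did. Of the 584 genes, 75 (12.8%, interval 10.2 to 15.8) had a shared peak of height 20 or more within 1 kb of an end. Over all protein-coding genes the share was 6.39%, and over 8203 genes nearest to a weak peak but to no member it was 5.01% (4.55 to 5.505). Among the 30 listed genes next to a member, 10 had such a peak, among them CCN1, CEBPB, DUSP5, KLF6, CCNE1 and WEE1.

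Members lay nearer to genes than weak peaks under the same position rule. The median distance of the midpoint to the nearest protein-coding gene end was 32588.5 bp for members and 73735 bp for weak peaks. Between 5 and 10 kb lay 15.3% of members (12.8 to 18.1) and 8.41% of weak peaks (8.20 to 8.63), and beyond 200 kb 7.37% (5.602 to 9.49) and 25.02% (24.7 to 25.4). With the strand known for the nearest gene of 574 members, 58.2% (54.0 to 62.3) lay on the 5′ side of that gene, against 53.2% (52.8 to 53.6) of weak peaks. By control height, 152 of 262 members did so at 20 to 29 and 94 of 156 at 30 to 39. At 40 to 59 it was 60 of 103, and at 60 or more 28 of 53. The nearest to a gene end was the member 5025 bp from CDV3 with 43 in the TGF-β1 list and 45 in the control list, followed by those of NTSR1, S100A10, PIK3C2B and HMGN4. The farthest lay 817273 bp from SLC10A2, the ileal bile acid transporter, with 27 in the TGF-β1 list and 22 in the control list, followed by one 797432 bp from NSUN3 and by the 3 high sites of chromosome 1 beside H3-7. Just outside the rule, 38 sites between genes lay 4 to 5 kb from a gene end, the closest to the rule at 4969 bp, and 28 members lay at 5 to 6 kb.

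**Figure D3:**
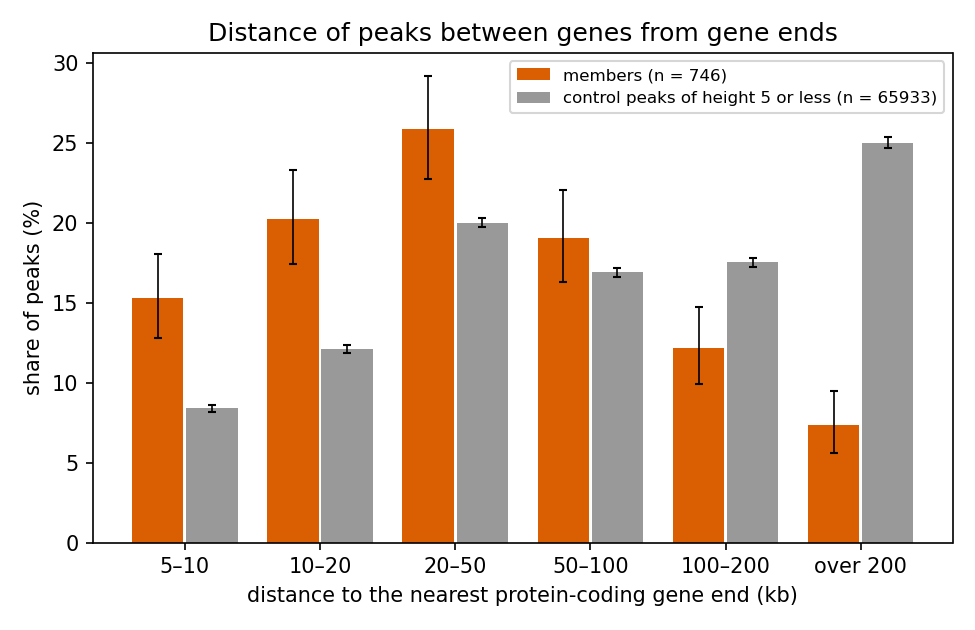
Share of peaks (%) by distance of the midpoint from the nearest protein-coding gene end (kb), for members and for control peaks of height 5 or less under the same position rule, with exact binomial 95% intervals. Members have the higher share up to 50 kb (15.3% against 8.41% at 5 to 10 kb) and the lower share beyond 200 kb (7.37% against 25.02%).

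Small structural RNA genes lay beside a higher share of members than of weak peaks. A snRNA gene end was within 1 kb of the midpoint of 17 members (2.28%, 1.33 to 3.62), against 3 of 65933 weak peaks (0.00455%). For tRNA genes it was 12 members (1.61%, 0.834 to 2.79), against 18 weak peaks (0.0273%), and for rRNA genes 7 members (0.938%, 0.378 to 1.92), against 0 weak peaks, which allows a share of up to 0.00455% (3 counts of the total). At positions 5, 10 and 20 kb to either side of the members, the count was 5 to 12 for snRNA, 2 to 4 for tRNA and 1 to 8 for rRNA genes, which stand in arrays. The position rule was not applied to these moved positions, so they may lie inside genes or near gene ends. For pseudogenes the counts were 11 members and 9 to 19 at the moved positions. Genes of lncRNA had an end within 1 kb of 36 members (4.83%, 3.40 to 6.62), 1.66% of weak peaks (1.56 to 1.76) and 19 to 31 at the moved positions. A non-coding gene end of any kind was within 1 kb of 81 members, 10.9% (8.72 to 13.3), against 3.20% of weak peaks (3.07 to 3.34) and 47 to 62 at the moved positions. Of these members, 12 of the 17 with a snRNA gene end and all 7 with a rRNA gene end lay in the 2 largest groups of neighbouring members. Among the 717 members outside those groups and apart from the 4 highest, 5 had a snRNA gene end (0.697%, 0.227 to 1.62), 12 a tRNA gene end (1.67%) and 0 a rRNA gene end, which allows a share of up to 0.418%. Copies of these small genes are near-identical, so the placing of reads among them is uncertain.

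**Figure D4:**
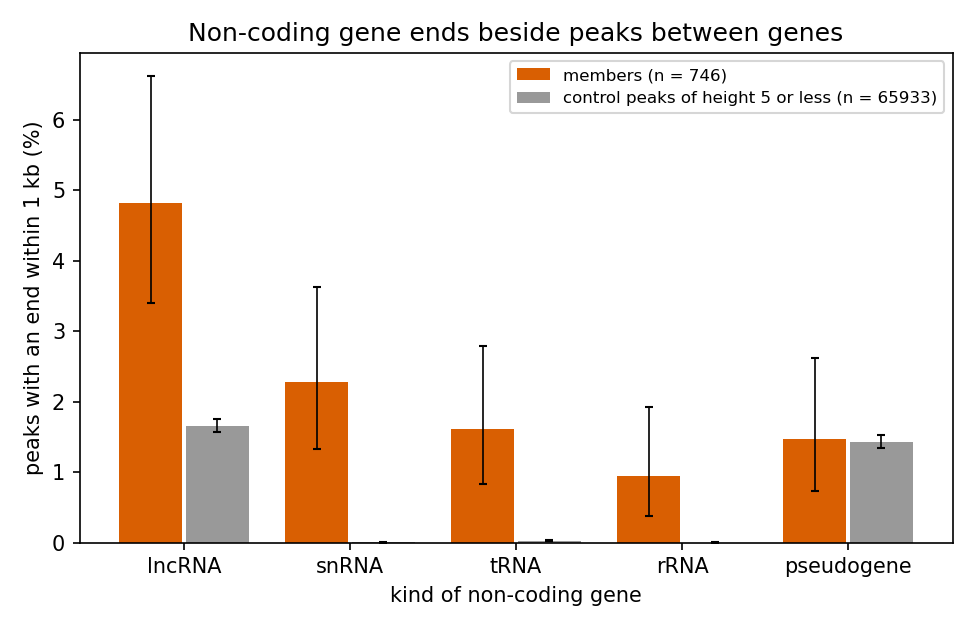
Share of peaks (%) with an end of a non-coding gene within 1 kb of the midpoint, by kind of gene, for members and for control peaks of height 5 or less between genes, with exact binomial 95% intervals. Members have the higher share for lncRNA (4.83% against 1.66%), snRNA, tRNA and rRNA genes, and pseudogenes differ little (1.47% against 1.43%).

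Several tRNA genes, which RNA polymerase III transcribes, stood beside members on chromosome 6. The member beside TRT-AGT2-1, 214 bp from it, had 44 in the TGF-β1 list and 68 in the control list, that beside TRY-GTA1-1 had 31 and 51, and that beside TRS-TGA3-1 had 43 and 41. On chromosome 15, TRE-TTC2-2 had 52 in the TGF-β1 list and 59 in the control list. Another polymerase III gene, RNY3 of the Y RNAs, had a member 48 bp away with 24 in the TGF-β1 list and 35 in the control list. Pseudogenes of 5S rRNA lay beside a member 29 bp from RNA5SP362, with 50 and 83, and beside one 921 bp from RNA5SP40, with 56 and 53. Members beside tRNA genes as their nearest non-coding end had a median height of 25 in the TGF-β1 list and 37 in the control list over 11 sites, with ranges of 20 to 52 and 22 to 68.

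Among lncRNA genes, the highest members were those of LOC124907883 and of LOC124904517, whose peak had 78 in the TGF-β1 list and 84 in the control list and lay 103351 bp from the MAP kinase phosphatase gene DUSP10. LOC105375782, 6102 bp from TRAPPC9, had 60 in the TGF-β1 list and 68 in the control list. An end of EPCAM-DT, the divergent transcript of the gene of an epithelial adhesion molecule, lay beside a member with 40 in the TGF-β1 list and 65 in the control list. This member lay in a group of 3 members whose nearest protein-coding gene was CALM2. No start window of EPCAM-DT or LOC105375782 overlapped a member, so the end beside the peak need not be the start.

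A pair of members is named here because they lay at or near well-studied microRNA genes. A microRNA gene end was within 1 kb of 1 member (0.134%, 0.003 to 0.745). The share was 0.0394% of weak peaks (0.0258 to 0.0578), and the count was 0 to 2 at the moved positions. The peak over the start of MIR17HG on chromosome 13 had 27 in the TGF-β1 list and 36 in the control list, and the first hairpin of the cluster began 3238 bp from its midpoint. The printed MIR17HG window had a GC content of 73.0% and no word in capitals. A member with 24 in the TGF-β1 list and 24 in the control list had its midpoint 884 bp from MIR30A, which encodes miR-30a, abundant in kidney epithelium. Its control peak, at 71403344 to 71405666 on chromosome 6, covered both mature forms of miR-30a. The main mature forms are shown with the seed (bases 2 to 8) in capitals, because the seed decides which messages a microRNA can pair with. miR-17-5p and miR-20a-5p share a seed, and miR-19a-3p and miR-19b-3p share another.
hsa-miR-17-5p (chr13:91350618-91350640, plus strand): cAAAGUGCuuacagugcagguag
hsa-miR-20a-5p (chr13:91351072-91351094, plus strand): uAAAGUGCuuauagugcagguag
hsa-miR-18a-5p (chr13:91350756-91350778, plus strand): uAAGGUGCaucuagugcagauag
hsa-miR-19a-3p (chr13:91350939-91350961, plus strand): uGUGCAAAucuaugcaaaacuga
hsa-miR-19b-3p (chr13:91351245-91351267, plus strand): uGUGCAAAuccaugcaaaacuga
hsa-miR-92a-3p (chr13:91351361-91351382, plus strand): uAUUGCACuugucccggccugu
hsa-miR-30a-5p (chr6:71403595-71403616, minus strand): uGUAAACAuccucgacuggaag

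Members came in groups. Another member lay within 50 kb of 239 of the 746 (32.0%, 28.7 to 35.5), and a member lay within that distance of 3.36% of weak peaks (3.22 to 3.50). When members with gaps of at most 50 kb were joined, 507 stood alone, 71 pairs and 18 groups of 3 formed, and 6 groups were larger. Without the 2 largest groups and the 4 highest members the share near another member was 29.4%.

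The largest group, 17 members over 84.855 kb of chromosome 17 beside CCDC200, ran along an array of snRNA genes, and 12 of the 17 had an end of one within 1 kb. One of them, at 43245634 to 43246907, had 147 in the TGF-β1 list and 161 in the control list, and the other 16 were under 50 in both. The next, 8 members over 22.53 kb of chromosome 1 near RHOU, followed the genes of 5S ribosomal RNA. Their midpoints stood a median of 2256 bp apart, 7 of them had the end of a separate RNA5S gene 413 to 556 bp away, and their heights were 29 to 49 in the TGF-β1 list and 29 to 44 in the control list. Within this array 3 further TGF-β1 peaks of 31 to 103 had no overlapping control peak, and 3 further control peaks of 26 to 39 had no overlapping TGF-β1 peak.

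The third group held no such array. Its 6 members lay over 94.389 kb of chromosome 3 between NFKBIZ, an inducible regulator of NF-κB, and ZPLD1, with heights of 25 to 74 in the TGF-β1 list and 33 to 78 in the control list. It included the widest control peaks of all members, 5180 bp with heights of 40 and 64, and 4127 bp with 31 and 36, TGF-β1 list first. The next widest lay beside RALGPS2 (3602 bp), DNAH5 (3554 bp) and SSR3 (3485 bp). Groups of 4 lay between SMNDC1 and DUSP5 on chromosome 10, beside TBL1XR1, a subunit of the NCoR corepressor, on chromosome 3, and beside BCAS1 on chromosome 20.

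**Figure D5:**
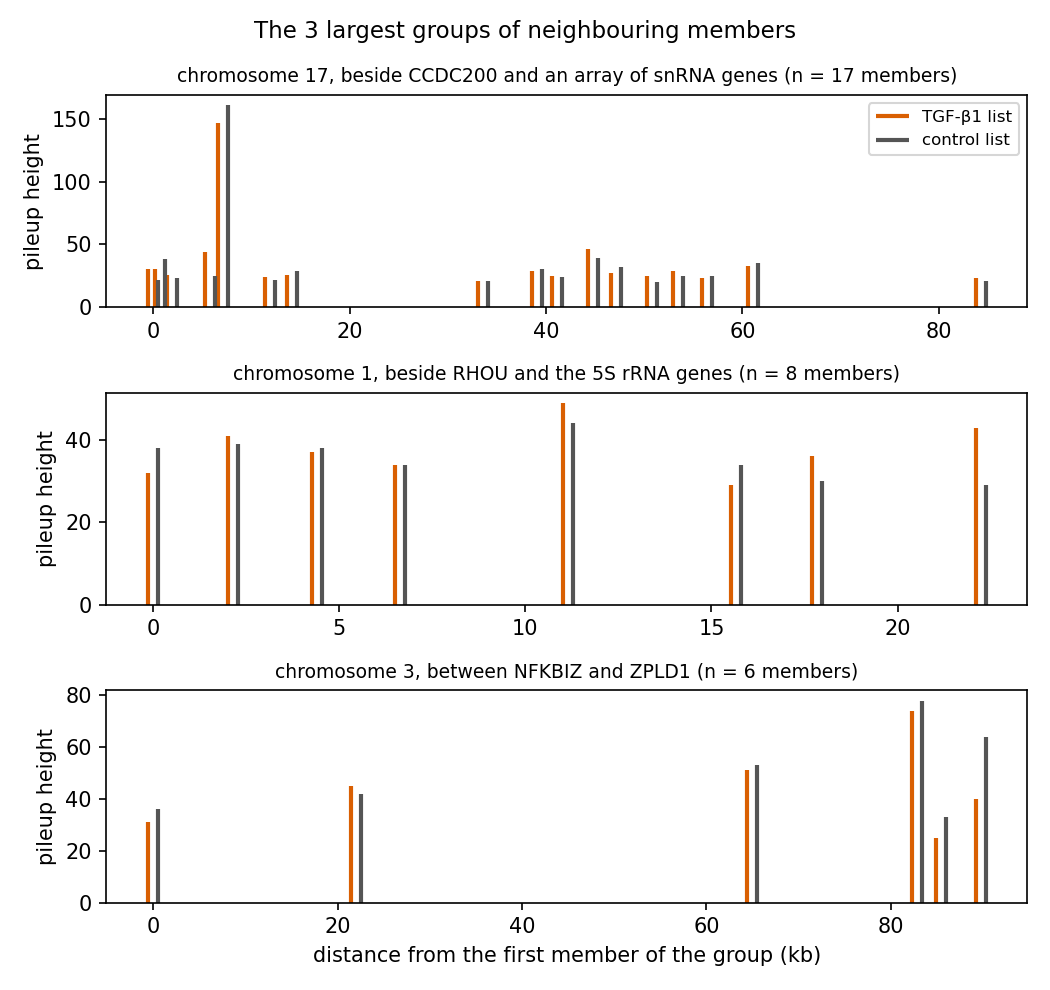
Pileup height (y) of the members in the 3 largest groups by distance from the first member (x, kb), with the TGF-β1 bar drawn just left of the control bar of the same member. The 17 members of chromosome 17 include 1 of 147 and 161, the 8 of chromosome 1 lie between 29 and 49 in both lists, and the 6 of chromosome 3 reach 74 and 78.

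The peaks were narrower than those at gene ends, and the midpoints of the overlapping pair lay nearer to each other. Median width was 956 bp in the TGF-β1 list and 890.5 bp in the control list for members, against 1097 and 1183.5 bp at gene ends and 933 and 921 bp deep inside genes. The midpoints of the 2 overlapping peaks lay a median of 128 bp apart for members, 176 bp at gene ends and 126 bp deep inside genes. Control peaks wider than 1 kb made up 41.2% of members (37.6 to 44.8), 62.1% at gene ends (59.1 to 65.0) and 43.7% deep inside genes (41.3 to 46.0). In these measures the members lay close to the shared peaks deep inside genes.

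Between genes, 66.8% of TGF-β1 peaks of height 20 or more (64.0 to 69.6) overlapped a control peak of that height, against 85.9% (83.9 to 87.8) at gene ends and 72.1% (70.2 to 73.8) deep inside genes. The shares of control peaks overlapped the other way round were 55.1% between genes (52.4 to 57.8), 58.6% at gene ends (56.3 to 60.8) and 55.0% deep inside genes (53.2 to 56.7). A peak of any height in the other list overlapped 95.3% of the TGF-β1 peaks and 97.3% of the control peaks of height 20 or more between genes. Because depth was unknown, a height of 20 may not ask the same of the 2 libraries.

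The members were spread unevenly over chromosomes. Chromosome 1 held 119 of the 746 (15.95%, 13.4 to 18.8), against 13.7% of the shared peaks that were not members and 4.83% of weak peaks between genes. Chromosome 20 held 52 (6.97%), against 5.32% and 0.887%, and chromosome 8 held 41 (5.496%, 3.97 to 7.38), against 3.43% (2.85 to 4.09) and 5.18%. Chromosomes 18 and 21 held 3 each, and X held 9 (1.21%), against 1.45% and 10.1%. Chromosome 16 held 12 (1.61%, 0.834 to 2.79), against 3.43% of the other shared peaks (2.85 to 4.09). It was the only chromosome where these intervals did not overlap. It was picked after all chromosomes were compared and the gap was narrow, so this is a description and not a test. Shares were also lower than those of the other shared peaks on chromosome 19, with 1.61% against 3.34%, and on chromosome 9, with 2.41% against 4.15%.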

How the data were processed

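FOXK1 chromatin immunoprecipitation was sequenced in 1 library per condition, each with an input. The authors deposited 1 peak list for each condition, with a position and a signal per peak, a whole number whose lowest value was 3. It was read as a pileup height from its values and the use of MACS2, which no source used here states. Per the submitters' processing notes, bcl2fastq 2.17, MACS2 2.1.1.20160309 and hg38 were used. Aligner, read filters, threshold and depth are not given in the sources used here, so intervals cover counting error only. They also count neighbouring members as independent. Starts were read as counting from 0, which the files do not state.

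Gene positions and biotypes came from RefSeq on GRCh38.p14 (19974 protein-coding genes on these chromosomes, strand known for 15812 from the promoter table). No genome was used, so words were searched in promoter windows only. Where several TGF-β1 peaks overlapped a member (6 members), the highest was kept. Weak comparison peaks, control peaks of height 5 or less under the same position rule, were chosen after the data were seen. They were spread over chromosomes differently from the members, and no comparison with them was matched for chromosome. Python 3.11.15, numpy 2.4.6, pandas 2.3.3, scipy 1.17.1 and matplotlib 3.10.9 were used, and overlap and distance functions were tested on simulated intervals. Shares have exact binomial 95% intervals, and no p-value was computed because each condition had a single FOXK1 library.

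The members, gene lists and words were chosen with earlier results of these data known. All 276 listed genes in 13 lists matched by symbol. Members named were the 15 highest in each list, the 5 widest, farthest and nearest, those whose nearest gene is listed, the 3 largest groups and up to 10 with a non-coding gene end. A few others were chosen after their values were seen, and some listed genes are not reported here. Alternative settings changed the height minimum, distance, overlap, midpoint, bins, start base and windows.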

Additional observations from a re-analysis of the deposited data

Results flagged for a closer look

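The bins of 1 Mb without a protein-coding gene, which the position rule left out, held 74 shared peaks of height 20 or more between genes. They were picked out as signal in data that the report does not use. Their median height was 27.5 in the TGF-β1 list and 31.5 in the control list and their median width 518 and 402 bp. The highest, on chromosome 17 at 26619480 to 26620095, had 432 in the TGF-β1 list and 422 in the control list. Sharing was lower there: 24.3% (19.6 to 29.5) of the TGF-β1 peaks and 24.7% (20.0 to 30.04) of the control peaks of height 20 or more overlapped one of that height in the other list.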

How the results depend on the processing

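Of 357 values recomputed under other settings, 301 stayed within the limit set for them and 56 moved beyond it. Whether a comparison changed direction was not computed. Of the 357, 140 were shares of promoter windows with a word. These rest on few windows, so their limits were wide and staying within them says little. The GTAAACA share was 17.1% to 40%, highest at a minimum height of 30, the AP-1 share 25% from the TGF-β1 midpoint to 60% at a minimum height of 30, and the TGTTTNC share 28.6% to 50%. The GC box was in 0% at a minimum height of 30, and the single windows with the E-box and HNF1 words were lost under 4 and 2 settings. With a minimum height of 15 there were 1525 members, median heights of 22 (TGF-β1) and 23 (control), a median control width of 821 bp, 42.5% within 50 kb of another member and 8.66% within 1 kb of a non-coding gene end. With a minimum of 30 there were 266 members, medians of 42 (TGF-β1) and 43.5 (control), and 20.3% near another member. The median distance to a gene end was 25185 bp beyond 2 kb, 42824.5 bp beyond 10 kb and 39166 bp with the left-out bins kept. Overlap of 50% of the control peak gave a median width of 845.5 bp, and overlap of 50% of both gave 26.3% near another member. Windows of 20 and 100 kb gave 23.7% and 38.1%, and windows of 2 and 5 kb around non-coding gene ends 15.7% and 25.6%. Without the 2 longest groups and the 4 highest members, an alternative chosen after seeing the data, the share at non-coding gene ends was 8.65%.

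Counts of listed genes nearest to a member moved with few genes. At a minimum height of 15 they were 2 for matrix, 2 for epithelial and EMT, 2 for hypoxia, 4 for forkhead, 7 for C/EBP, ETS and ERK feedback, 4 for kidney and 4 for cell cycle genes. At 30 they were 5 for TGF-β, 1 for forkhead, 1 for C/EBP, ETS and ERK feedback and 0 for glycolysis, matrix, hypoxia and injury genes. Beyond 10 kb they were 1 for forkhead, 0 for kidney and 1 for cell cycle genes. Matrix genes gave 0 with overlap of 50% of the control peak, with 50% of both and from the TGF-β1 midpoint. With the left-out bins kept, EMT genes gave 1 and kidney genes 2. With both flanking genes counted, the counts were 5 for matrix, 3 for AP-1, 2 for EMT, 3 for hypoxia, 4 for forkhead, 2 for kidney and 4 for cell cycle genes.

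No paired analysis was possible because each condition had 1 FOXK1 library and no test was made. Word searches over whole peaks and over the stretch common to both lists were not run, since no genome sequence was used. Depth is unknown, so it could not be said what heights near 20 can resolve, and the 20 windows leave wide intervals.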

Other observations

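Between genes, 52 TGF-β1 peaks and 37 control peaks of height 20 or more had no overlapping peak of any height in the other list. Of these, 11 in the TGF-β1 list and 1 in the control list reached 100. The highest of the TGF-β1 list lay on chromosome 1 at 143202542 to 143202784 with a height of 3852 and a width of 243 bp. The highest of the control list lay on chromosome 10 at 133688234 to 133688804, 61724 bp from FRG2B, with 298.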
